A study of Homo sapiens with 6 samples.

Results

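Transcripts of 9 genes that build or restrain the matrix-degrading machinery were followed: the matrix metalloproteinases MMP1, MMP2, MMP3, MMP9, MMP10 and MMP14, and the tissue inhibitors of metalloproteinases TIMP1, TIMP2 and TIMP3. They were chosen by gene symbol, and all 9 were found among the 16574 genes of the expression files. The cells were Nthy-ori 3-1, a human thyroid follicular epithelial line immortalised with SV40 large T antigen, labelled as wild type. Of the 6 libraries, 3 came from cells given 2.5 µM BDE209 (decabromodiphenyl ether, a brominated flame retardant) over 27 days, and 3 from cells given the same volume of the solvent DMSO over 27 days. All libraries are of 1 immortalised line, and the labels do not state whether replicates 1, 2 and 3 were separate cultures, so the p-values measure a spread that may be technical. The series concerns growth and tumour formation of thyroid cells under long exposure to BDE209.

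Matrix metalloproteinases are zinc-dependent proteases that are made as inactive precursors and cut the proteins of the extracellular matrix. MMP1 is an interstitial collagenase, MMP3 and MMP10 are stromelysins, MMP2 and MMP9 are gelatinases, and MMP14 is anchored in the cell membrane. TIMPs bind the active site of these enzymes, and TIMP2 has a further role: bound to MMP14 at the cell surface, it captures the precursor of MMP2, which a free MMP14 molecule then cuts. TIMP3 differs from the others in that it stays bound to the matrix. In thyroid tumours this system has been studied for its part in invasion, and TIMP1 is a known transcript of papillary carcinoma.

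The libraries held between 14630 and 14914 genes above 0. Values are FPKM, fragments scaled to transcript length and library size, so levels of different genes can be compared, but only roughly. The replicate 2 libraries still shifted with transcript length, as given below, and the depth in fragments is unknown. Both replicate 2 libraries stood apart: their FPKM summed to 819086 and 829739, against 567810 to 596725 in the other 4. The thyroid markers TG, TSHR, SLC5A5, PAX8, NKX2-1 and FOXE1 were nearly absent, with summed levels of 1.60 to 1.83 FPKM in controls and 1.34 to 2.04 in exposed cells. Of 6 epithelial markers, KRT7 and KRT18 made up most of the sum of 150.5 to 178.7 FPKM in controls and 118.8 to 155.0 in exposed cells, and CDH1 was listed at 0 in 5 of 6 libraries. The 7 mesenchymal markers, led by VIM, summed to 8160 to 9922 FPKM in controls and 7426 to 8138 in exposed cells. Single markers of this list went both ways. The proteoglycans LUM and DCN rose in replicates 1 and 3, by 1.46 and 1.10 (limma adjusted p = 0.000327 and 0.000993), and POSTN and PDGFRB fell by 1.70 and 0.42 (0.00022 and 0.0332). In replicate 2 the differences were smaller, at 0.39 for LUM, 0.16 for DCN, -0.06 for POSTN and -0.03 for PDGFRB. The interaction term described below was called for LUM and POSTN (limma adjusted p = 0.0328 and 0.011). It was not called for DCN (0.0588) or PDGFRB (0.399). LUM and DCN were also higher in every BDE209 library than in any DMSO library, as were 3.22% of tested genes. VIM and the epithelial marker KRT7 were lower in every BDE209 library than in any DMSO library, as were 2.00% of tested genes. Of the 7 mesenchymal markers, 2 were higher and 4 lower in all 3 pairs (21.9% and 17.3% of tested genes). Over all 6 libraries limma called 0 of the 7. The leukocyte markers summed to 59 to 74.6 and 49.1 to 68.4, nearly all of it CD68, with PTPRC at 0.02 FPKM or less, and the endothelial ones to 2.22 to 2.47 and 2.66 to 3.36. The part of these markers in the results was not tested. In such bulk RNA, fewer cells that make a transcript and less transcript per cell cannot be told apart.

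MMP1 was by far the most abundant of the 9 transcripts. Solvent controls held 1706.98 (replicate 1), 3413.62 (replicate 2) and 1635.48 FPKM (replicate 3), and their mean ranked 44 among the 16574 genes. By mean level in DMSO, MMP2 (488.5 FPKM, rank 194), TIMP1 (356.9, rank 250), MMP14 (322.9, rank 271), TIMP3 (119.4, rank 773), TIMP2 (93.3, rank 987) and MMP3 (60.8, rank 1531) followed. MMP10 had a mean of 0.46 FPKM, and MMP9, a gelatinase typical of leukocytes, was listed at 0 in all 6 libraries. Not every step of this order held in each library. TIMP1 was above MMP14 in 3 of 6 libraries, and MMP2 above TIMP1, TIMP3 above TIMP2 and TIMP2 above MMP3 in 4 of 6. For the last 3 of these steps the exceptions were the replicate 2 libraries. MMP1 above MMP2, MMP14 above TIMP3, MMP3 above MMP10 and MMP10 above MMP9 held in 6 of 6.

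**Figure D1:**
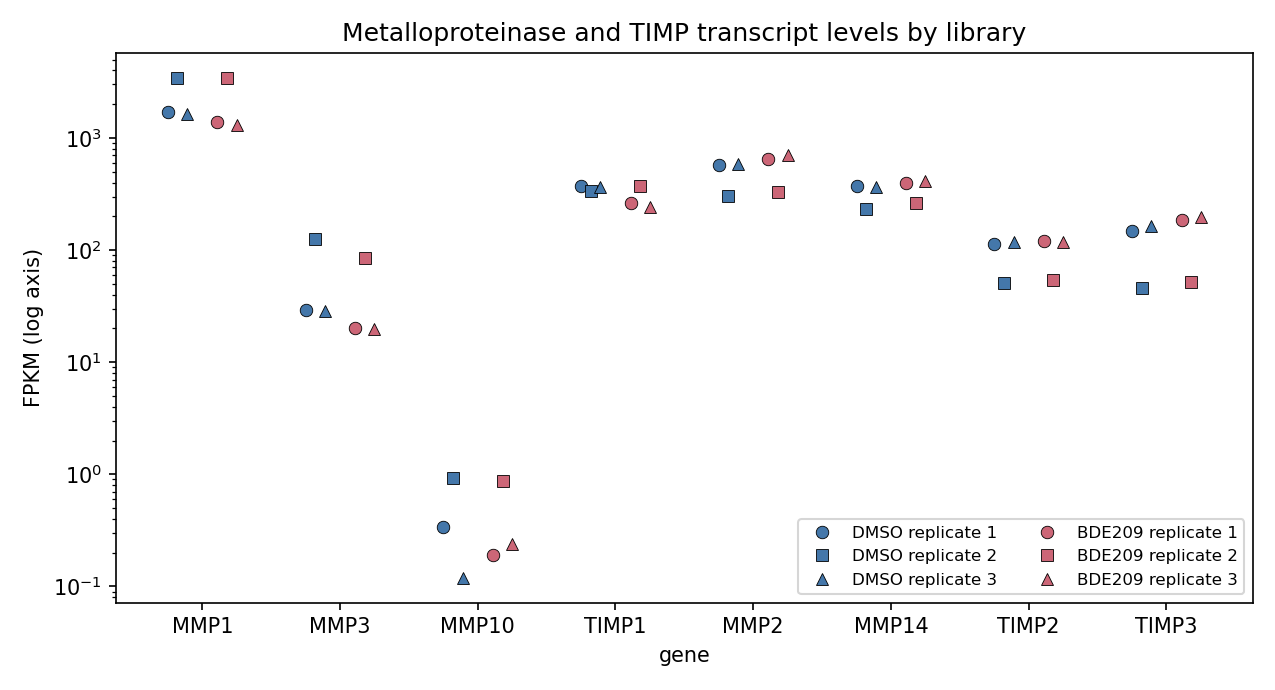
FPKM on a log axis for the 8 genes above 0, with 1 point per library, blue for DMSO and red for BDE209, and a marker shape for each replicate number. The square points of replicate 2 lie above the others for MMP1, MMP3 and MMP10 and below them for MMP2, MMP14, TIMP2 and TIMP3 in both groups.

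The collagenase and stromelysin genes MMP1, MMP3 and MMP10 lie next to each other in a run of 9 metalloproteinase genes on chromosome 11, in the order MMP7, MMP20, MMP27, MMP8, MMP10, MMP1, MMP3, MMP12, MMP13 (RefSeq, GRCh38.p14). Within this run, high transcript levels were found for the adjoining pair MMP1, at 1295.92 to 3423.05 FPKM, and MMP3, at 19.93 to 124.98. Of the others, MMP7 read 0.39 to 1.72, MMP10 0.12 to 0.92, MMP13 0.37 to 0.73, MMP12 0 to 0.35 and MMP8 0 to 0.08 FPKM, while MMP20 and MMP27 were not analysed here.

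No member passed the threshold in the comparison of all 6 libraries. Limma called 0 of 7 tested members and 0 of 11223 genes, so the background was 0%, with 0 members and 176 genes at an unadjusted p under 0.05, or 186 genes by limma without its trend and robust options, which also called 0. MMP9 and MMP10 lay under the filter. With the replicate number as a block, 0 members and 0% of genes were called, while 5 members and 1847 genes (16.5%) had an unadjusted p under 0.05. In 0 of the 7 members did the 3 BDE209 values lie apart from the 3 DMSO values, against 5.22% of all tested genes. Within replicate numbers, 4 members were higher in BDE209 in all 3 pairs (MMP2, MMP14, TIMP2 and TIMP3), which 21.9% of tested genes were, and 1 was lower in all 3 (MMP3), which 17.3% were. The median log2 difference of the 7 members was 0.07, beside 0.01 for all tested genes.

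**Figure D2:**
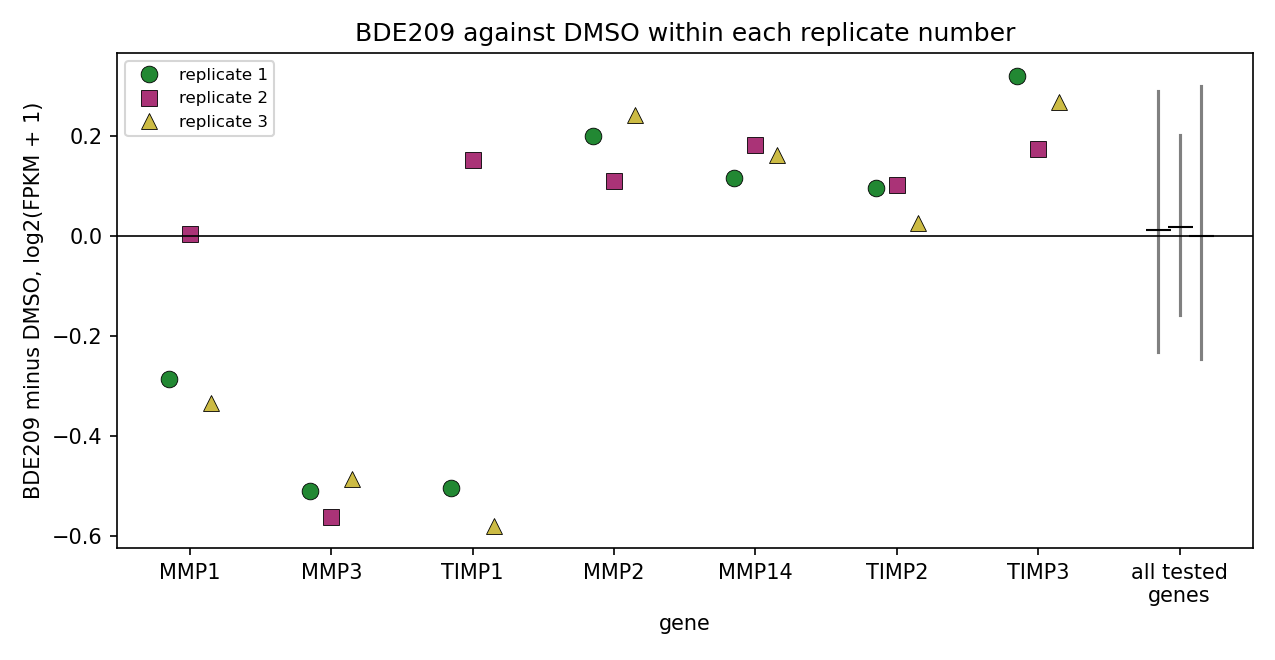
Difference of exposed from control cells within each replicate number, in log2(FPKM + 1) as BDE209 minus DMSO, for the 7 tested members. Grey lines on the right run from the 10th to the 90th percentile of all tested genes, with the median as a black dash. MMP3 lies between -0.56 and -0.49 in all 3 pairs, and TIMP1 is at -0.51 and -0.58 in replicates 1 and 3 but at 0.15 in replicate 2.

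MMP3, the stromelysin that cuts many matrix proteins and also activates other metalloproteinase precursors, had the largest difference of the tested members over all 6 libraries, and it was much the same in all 3 pairs. That of TIMP1 was larger in replicates 1 and 3 alone. For replicates 1, 2 and 3 the solvent controls held 28.98, 124.98 and 28.33 FPKM, and the exposed cells 20.05, 84.29 and 19.93. The group values overlapped, with the replicate 2 libraries of both groups above all others, but each BDE209 library was below its own DMSO library, at 0.692, 0.674 and 0.703 of its level. BDE209 differed from DMSO by -0.52 log2 units (SE 0.777, n = 3 per group), for which limma gave an adjusted p of 1.00. With the block the difference had an SE of 0.0521 and a 95% interval of -0.65 to -0.39, and limma's adjusted p was 0.144. In replicates 1 and 3 alone MMP3 fell by 0.50 (SE 0.0723; limma adjusted p = 0.0103). In that fit limma called 2 of the 7 members, MMP3 and TIMP1, and 6.81% of all genes (2.33% as lower, 4.47% as higher). Without DMSO replicate 2 alone, which keeps the high BDE209 replicate 2 library unpaired, the difference turned to 0.18.

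MMP1, the collagenase that starts the cleavage of fibrillar collagen, had levels of 1400.02 (replicate 1), 3423.05 (replicate 2) and 1295.92 FPKM (replicate 3) in exposed cells. Against the control values given above, replicates 1 and 3 were at 0.82 and 0.792 of the DMSO level, and replicate 2 was at 1.00. The difference of -0.21 (SE 0.498) was under the spread between replicates (limma adjusted p = 1.00; with the block 0.284, interval -0.40 to -0.01). Replicates 1 and 3 alone gave -0.31 (SE 0.0799; limma adjusted p = 0.0702). It turned to 0.14 without DMSO replicate 2 and to 0.05 without BDE209 replicate 3.

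MMP10, the other stromelysin of the run, stayed under 1 FPKM in all 6 libraries. Its levels were 0.34, 0.92 and 0.12 FPKM in the controls for replicates 1, 2 and 3, and 0.19, 0.87 and 0.24 in the exposed cells, so the pairs went both ways. A two-sided exact permutation test of the log2 difference of -0.02 gave p = 0.9, where 3 against 3 allows no p under 0.1. The difference turned positive without DMSO replicate 2 (0.20), BDE209 replicate 1 (0.10) or BDE209 replicate 3 (0.07).

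TIMP1, the soluble inhibitor of most secreted metalloproteinases, differed in direction between the pairs. The controls held 375.69, 333.11 and 361.79 FPKM for replicates 1, 2 and 3, and the exposed cells 264.37, 370.16 and 241.63. Replicates 1 and 3 were at 0.704 and 0.668 of the DMSO level and replicate 2 was at 1.11 of it. Over all 6 libraries the difference was -0.31 (SE 0.219; limma adjusted p = 1.00, or 0.365 with the block), while in replicates 1 and 3 alone TIMP1 fell by 0.54 (SE 0.0791; limma adjusted p = 0.0104). TIMP1 was the tested member with the smallest shift of replicate 2 as such, at 0.20 log2 units, and its DMSO values lay close together.

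An interaction term tested whether replicate 2 responded to BDE209 otherwise than replicates 1 and 3 did. Its spread was taken from replicates 1 and 3, with 1 library per group in replicate 2. This test followed from earlier results of these data. By limma it called 0 of the 7 members and 0.615% of all genes. An unadjusted p under 0.05 was found for 1 member, TIMP1, and for 1246 of the 11223 genes. For TIMP1 the effect in replicate 2 was 0.69 higher (SE 0.140; limma adjusted p = 0.118), and for MMP1 0.31 higher (SE 0.145; limma adjusted p = 0.508). With the replicate number also as a block, which leaves 1 residual degree of freedom, limma called 10.3% of genes and 2 members, TIMP1 (adjusted p = 3.51e-05) and MMP1 (0.00272). For MMP3 the effect in replicate 2 differed by -0.06 (interval -0.36 to 0.23).

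MMP14, TIMP2 and MMP2, the partners of MMP2 activation at the cell surface, were each slightly higher in BDE209 in all 3 pairs without passing the test. For replicates 1, 2 and 3, MMP14 stood at 369.2, 233.31 and 366.21 FPKM in controls and at 400.27, 264.93 and 410.07 after exposure. That is 1.08, 1.14 and 1.12 times the control level. MMP2 stood at 569.88, 305.52 and 590.09 in controls and at 654.69, 329.98 and 697.91 after exposure, or 1.15, 1.08 and 1.18 times. For both genes the groups overlapped, with replicate 2 low in controls and exposed cells alike. TIMP2 stood at 112.23, 50.66 and 116.88 in controls and at 120.09, 54.48 and 118.94 after exposure, or 1.07, 1.08 and 1.02 times, the smallest difference of the 3. Their log2 differences were 0.15 (SE 0.284), 0.18 (SE 0.404) and 0.07 (SE 0.444) in the order MMP14, MMP2 and TIMP2, with limma adjusted p of 1.00 for each, and of 0.251, 0.233 and 0.489 with the block. In replicates 1 and 3 alone the limma adjusted p was 0.307, 0.149 and 0.663. Without DMSO replicate 2 the differences turned to -0.06, -0.12 and -0.31. MMP2 also turned without BDE209 replicate 3 (-0.01), and TIMP2 without BDE209 replicate 1 (-0.12) or 3 (-0.11).

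TIMP3, the matrix-bound inhibitor that also restrains ADAM proteases, had the largest positive difference of the tested members over all 6 libraries. Controls held 148.38, 45.7 and 164.25 FPKM for replicates 1, 2 and 3, and exposed cells 185.63, 51.71 and 198.07, or 1.25, 1.13 and 1.21 times the control level. The groups overlapped only through the low replicate 2 libraries. BDE209 stood 0.25 log2 units above DMSO (SE 0.691; limma adjusted p = 1.00). With the block this had an interval of 0.12 to 0.39 and a limma adjusted p of 0.206, and in replicates 1 and 3 alone it was 0.29 (SE 0.0824; limma adjusted p = 0.0876). It turned to -0.33 without DMSO replicate 2, -0.03 without BDE209 replicate 1 and -0.08 without BDE209 replicate 3.

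The set of promoter sequences used here (RefSeq, GRCh38.p14) held entries for 4 of the 9 members, and the promoters of the others were not examined. Of those 4, MMP14 and TIMP3 were higher in BDE209 in all 3 pairs, and TIMP1 went the other way in replicates 1 and 3. Limma called none of these 3 over all 6 libraries, and a link between promoter make-up and direction was not tested. The 250 bases before the start of these 3 are shown, written 5′ to 3′ along the gene. Matches to the GC box GGGCGG on either strand are in capitals.
MMP14 promoter, chr14:22836335-22836584, plus strand: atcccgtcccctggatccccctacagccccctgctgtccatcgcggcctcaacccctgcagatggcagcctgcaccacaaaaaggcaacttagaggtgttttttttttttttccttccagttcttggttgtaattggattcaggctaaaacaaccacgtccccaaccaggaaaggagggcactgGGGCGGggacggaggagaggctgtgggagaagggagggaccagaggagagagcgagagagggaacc
TIMP3 promoter, chr22:32801455-32801704, plus strand: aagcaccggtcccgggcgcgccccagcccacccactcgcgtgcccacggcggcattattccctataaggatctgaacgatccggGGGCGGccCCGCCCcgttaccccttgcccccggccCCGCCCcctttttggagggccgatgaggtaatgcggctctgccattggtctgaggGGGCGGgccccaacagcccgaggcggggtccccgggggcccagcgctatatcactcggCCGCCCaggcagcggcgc
TIMP1 promoter, chrX:47582186-47582435, plus strand: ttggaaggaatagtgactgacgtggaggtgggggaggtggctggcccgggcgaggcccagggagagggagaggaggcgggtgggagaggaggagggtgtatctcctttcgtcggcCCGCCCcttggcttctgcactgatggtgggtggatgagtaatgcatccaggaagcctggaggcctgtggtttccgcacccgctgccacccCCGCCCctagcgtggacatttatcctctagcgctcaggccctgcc
TIMP3 held 5 matches to the GC box, the binding sequence of SP1-type factors, TIMP1 held 2 and MMP14 held 1, and 42.6% of all 35116 promoters of that length held at least 1. G and C made up 72.4%, 64.8% and 56.8% of the 3 stretches. The AP-1 element TGANTCA and the TATA box TATAAA, searched on both strands, had no exact match in these 3 windows. Of all promoters 6.57% and 10.7% held one. Variants of these elements were not searched for, so their absence is not shown. The fourth entry, MMP10, held 1 AP-1 element that began 67 bases and 1 TATA box that began 31 bases before the start, and no GC box. None of these motifs overlapped another. A match is a run of letters in the reference and shows no binding.

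Read against each other, metalloproteinase transcripts outweighed those of the inhibitors in every library. The summed FPKM of the 6 metalloproteinases were 4.2, 9.5 and 4.08 times those of the 3 TIMPs in controls of replicates 1, 2 and 3, and 4.34, 8.61 and 4.34 times in exposed cells. The ratio was thus slightly higher in BDE209 in replicates 1 and 3 and lower in replicate 2, and no test was made of this sum over chosen genes. MMP1 made up 63.8%, 83.7% and 62.4% of the metalloproteinase sum in controls and 56.6%, 83.4% and 53.5% in exposed cells. TIMP1 made up 59.0%, 77.6% and 56.3% of the TIMP sum in controls and 46.4%, 77.7% and 43.3% in exposed cells. Both leading transcripts thus took a smaller share after exposure in replicates 1 and 3, while in replicate 2 their shares moved by under 1 percentage point. Together the 9 genes held 0.519% to 0.563% of all FPKM.

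**Figure D3:**
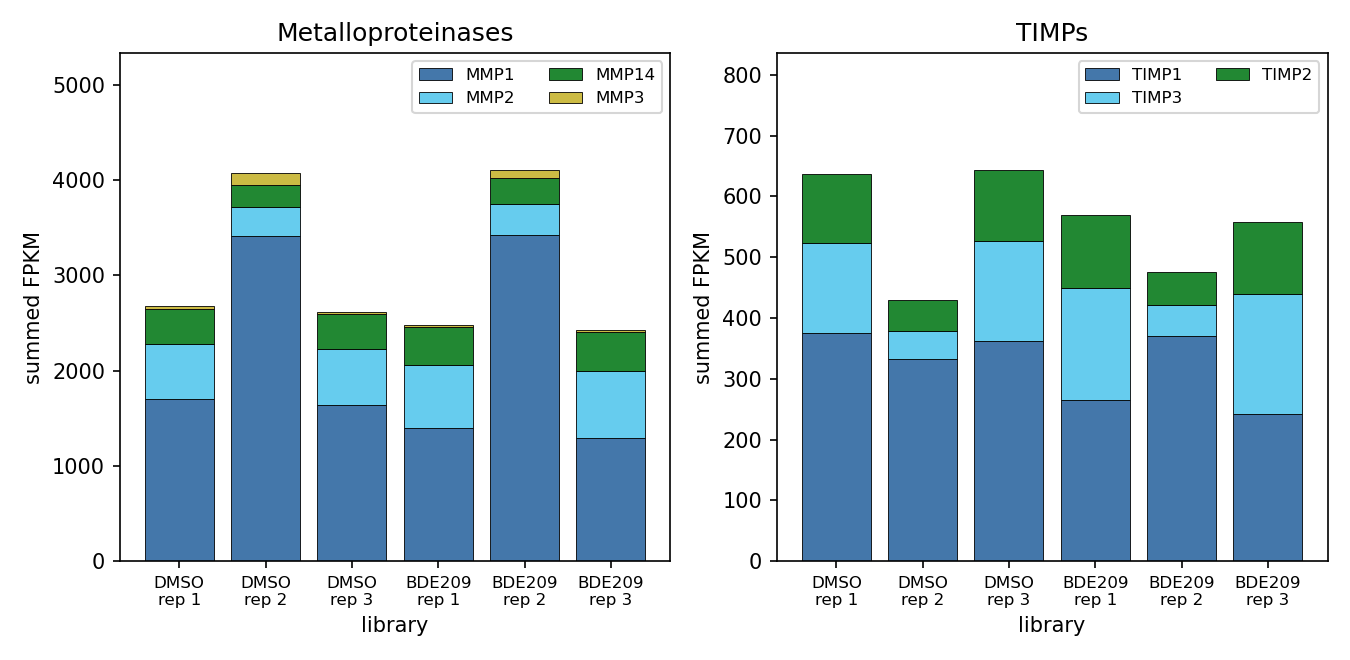
Stacked bars of FPKM per library for the metalloproteinases (left; MMP9 and MMP10, at or near 0, are left out) and the TIMPs (right). In replicate 2 the MMP1 segment is about as tall in both groups, and in replicates 1 and 3 the TIMP1 segment is shorter in BDE209 than in DMSO.

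For every tested member but TIMP1, the shift of the replicate 2 libraries was larger than the difference between BDE209 and DMSO. Relative to replicates 1 and 3, MMP3 was 2.05 log2 units higher in them and MMP1 1.19 higher, while TIMP3 was 1.81, TIMP2 1.14, MMP2 0.98 and MMP14 0.63 log2 units lower. TIMP1 was 0.20 higher in them, against a BDE209 difference of -0.31. In FPKM this is 4.3 times the level for MMP3 and 0.28 times for TIMP3. Over all tested genes the replicate 2 shift went with transcript length, from a median of 0.35 in the shortest to -0.40 in the longest of 4 equal groups of genes. MMP1, MMP3 and TIMP1, with longest transcripts of 1970, 2016 and 1095 nt (GENCODE v29), belong to the shortest group, and MMP2, MMP14, TIMP2 and TIMP3, of 3652 to 4603 nt, to the third, whose median was -0.21. MMP3 stood above 99.5% and MMP1 above 93.4% of the genes of their length group, while TIMP1 lay above 37.3% of it. TIMP3 stood above 0.1%, TIMP2 above 1.3%, MMP2 above 3.3% and MMP14 above 13.3% of theirs. The part of length or RNA quality in the members' levels was not tested.

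**Figure D4:**
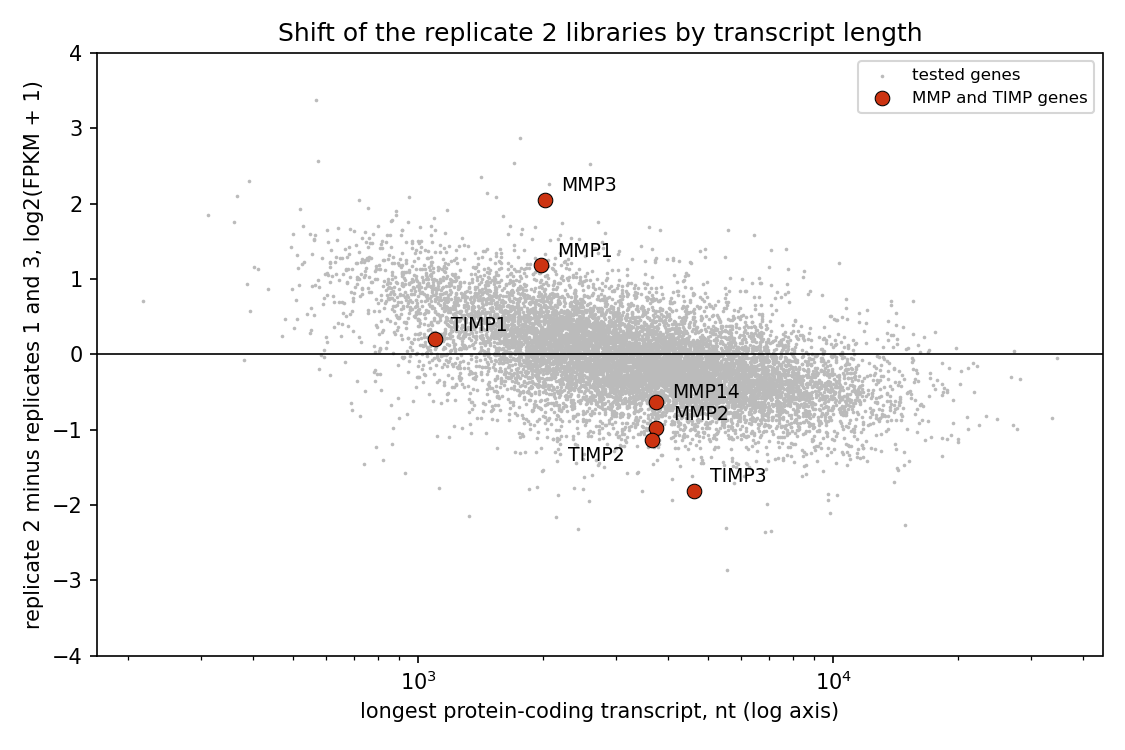
Shift of the replicate 2 libraries, as the mean log2(FPKM + 1) of both minus that of the other 4, against the longest protein-coding transcript on a log axis. Grey points are tested genes, of which 1 lies outside the axis, and red points the 7 tested members. MMP3 lies at 2.05 and TIMP3 at -1.81, each near the edge of the genes of like length.

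Because of this shift, correlations across the 6 libraries mostly describe replicate 2, and are given as a description without a test. The genes closest in pattern to TIMP3, the member of largest positive difference, were GPT2, COPA, HOOK3, KANK2 and NXPH4 (Pearson r of 0.9993 to 0.9996 on log2(FPKM + 1), 6 libraries). Those closest to MMP3, the member of largest negative difference, were ELP5, TRAPPC1, PCGF1, RPL32 and RPL29 (r of 0.9973 to 0.9992). Among the members, MMP3 and MMP14 ran opposite (r = -0.999) and MMP2 and TIMP3 ran together (r = 0.998), while TIMP1 correlated between -0.542 and 0.579 with each other member.

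The genes around this system were followed in 7 lists of 89 genes, chosen from general knowledge with earlier results of these data known, of which 61 were tested. Over all 6 libraries limma called 0 of them, with and without the block (0% of all genes), and 11 and 3 of them had an unadjusted p under 0.05 (16.5% and 1.57% of all genes). In replicates 1 and 3 alone limma called 11 (18% of the tested list genes, beside 6.81% of all genes), 6 higher and 5 lower. As the lists were not chosen blind to these data, the first share is a description only. Of these, PLAU, PLAT, RUNX2, COL3A1 and FN1 were named after their values were seen, as were FOSL1, JUN, FOS, COL1A1, COL1A2, COL5A1 and PLG.

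Plasminogen activation, which generates plasmin and with it active metalloproteinases, had 8 of the 9 genes reported here tested, with a median difference of 0.01. The gene left untested was PLG, which encodes plasminogen itself and read 0 to 0.03 FPKM. In replicates 1 and 3 limma called 3 of the 8. The activators PLAT, the tissue type, and PLAU, the urokinase type, rose there by 0.52 (limma adjusted p = 0.0108) and 0.42 (0.0375). In replicate 2 PLAT was lower, at 28.1 FPKM in DMSO and 23.13 in BDE209, and PLAU read 38.92 and 38.59. Over all 6 libraries they differed by 0.26 (SE 0.206) and 0.27 (SE 0.242), and neither was called. SERPINB2, an inhibitor of urokinase, rose by 0.97 (0.00142), from 26.54 and 24.66 to 53.09 and 48.85 FPKM, and stood at 36.3 and 28.88 in DMSO and BDE209 replicate 2. Over all 6 libraries its difference was 0.54 (SE 0.271) and was not called. By the interaction term, the effect on SERPINB2 in replicate 2 was 1.29 log2 units lower than in replicates 1 and 3 (limma adjusted p = 0.0169). This rests on 1 library per group in replicate 2. S100A10, a cell-surface partner of plasminogen through annexin A2, stood at 666.75, 596.59 and 688.79 FPKM in controls and at 562.86, 614.78 and 451.04 after exposure. The groups overlapped, with a difference of -0.27 (SE 0.211), and in replicates 1 and 3 it was -0.43 (limma adjusted p = 0.0729).

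Of the 17 other metalloproteinase genes, 15 were in the files and 6 were tested, with a median of -0.03. MMP15, a further membrane-anchored enzyme, stood at 3.14, 2.74 and 3.19 FPKM in controls and at 5.51, 2.58 and 6.6 after exposure. It rose by 0.76 in replicates 1 and 3 (limma adjusted p = 0.00881), and over all libraries the difference was 0.48 (SE 0.286). MMP11 differed by 0.25 and was higher in all 3 pairs. Of 4 other inhibitors 3 were tested, and in replicates 1 and 3 limma called 0, with 0 at an unadjusted p under 0.05 (21.9% of all genes). TIMP4 differed by -0.23, or by 0.05 without BDE209 replicate 2, and the membrane-anchored inhibitor RECK by -0.02, or by 0.09 without replicate 3, 0.10 without DMSO replicate 3 and 0.03 without BDE209 replicate 2.

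Among the matrix proteins that these enzymes cut, 9 of 14 were tested, 5 of them lower and 0 higher in all 3 pairs (17.3% and 21.9% of all genes), with a median of -0.24. In replicates 1 and 3 limma called 4 of them, all as lower: the fibrillar collagen COL3A1 by 1.70 (adjusted p = 0.000144), the basement membrane collagens COL4A1 by 0.66 (0.00486) and COL4A2 by 0.50 (0.0168), and fibronectin, FN1, by 0.53 (0.00846). Of all tested genes 2.33% were called as lower in that fit. The other fibrillar collagens tested, COL1A1, COL1A2 and COL5A1, differed there by -0.05, -0.13 and -0.05 and were not called. Their mean DMSO levels were 1949.2, 1188.5 and 133.9 FPKM, against 17.8 for COL3A1. COL3A1 was near 1 FPKM in replicate 2, at 0.93 in DMSO and 1.23 in BDE209, so that this pair went the other way. Over all libraries its difference was -1.06 (SE 1.13; limma adjusted p = 1.00), or -0.42 to -2.34 when 1 library was left out, and the interaction term was called (limma adjusted p = 0.00443). COL4A2 read 35.73, 28.38 and 33.52 FPKM in controls and at 23.15, 25.92 and 25.4 after exposure, so that its groups did not overlap, which was so for 2.00% of tested genes as lower. Its difference over all libraries was -0.37 (SE 0.134). Of 19 ADAM and ADAMTS proteases 15 were tested, with a median of -0.06. ADAMTS1, which cuts proteoglycans, stood at 28.56, 17.87 and 29.59 FPKM in controls and at 16.65, 14.24 and 17.62 after exposure. Like COL4A2, it showed no overlap of the groups, with a difference of -0.59 (SE 0.215). In replicates 1 and 3 it fell by 0.73 (limma adjusted p = 0.00297). ADAMTS15 differed by 0.24.

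The list of AP-1, ETS and RUNX transcription factors and their kin, among them known regulators of MMP1 and MMP3, had 12 of 15 genes tested, with a median of 0.07. FOSL1 and JUN, both AP-1 subunits, read 212.32 to 280.36 and 83.35 to 99.47 FPKM, while FOS stayed at 0.24 to 0.78. MAFF, a small bZIP factor, stood at 14.84, 20.12 and 15.69 FPKM in controls and at 21.16, 21.89 and 24.6 after exposure, without overlap, as did 3.22% of tested genes as higher. It rose by 0.55 in replicates 1 and 3 (limma adjusted p = 0.018). RUNX2 rose by 0.35 there (0.0483), and over all libraries it differed by 0.17, or by -0.04 without DMSO replicate 2 or BDE209 replicate 1 and -0.01 without BDE209 replicate 3. JUNB differed by 0.21 and was higher in all 3 pairs. Of 11 genes for activation, surface partners and clearance of metalloproteinases 8 were tested. In replicates 1 and 3 limma called 0 of these 8, with 2 at an unadjusted p under 0.05 (21.9% of all genes). FURIN, the convertase that activates MMP14, differed by -0.25 and PCSK7, a related convertase, by -0.13.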

How the data were processed

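RNA sequencing of 6 Nthy-ori 3-1 libraries was used, grouped by sample title. The authors deposited FPKM, rounded to 2 decimals, under human Ensembl identifiers, per the file headers. The submitters' processing notes name Bowtie 0.12.2, Bowtie2 and RSEM, and mm8 and mm10, which are mouse builds. The sources used here do not give a human build, strand use or how shared reads were assigned, so related metalloproteinase genes could share reads. FPKM carry no counts, so depth is unknown and no counting interval is given.

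Of 16614 rows, 40 with identifiers listed more than once were left out; 16535 of the 16574 genes left matched a symbol. Limma 3.58.1 (R 4.3.3; trend and robust options) was run on log2(FPKM + 1) over the 11223 genes with at least 1 FPKM in 3 or more libraries, with treatment alone, and p-values were Benjamini-Hochberg adjusted over all of them, with calls under 0.05. Differences are BDE209 minus DMSO, and understate changes of low genes. MMP10 had a two-sided exact permutation test over 20 arrangements. On simulated data, the treatment-only fit over 6 libraries missed changes of 1 log2 unit, most of which the fits with the block or without replicate 2 recovered, and it recovered most changes of 2 log2 units. The interaction fit missed the smaller changes, and with the block it missed both sizes. The simulated noise was the residual spread of the block fit, which also takes in any difference of effect between replicates. In the data the interaction fit with the block called 10.3% of genes, so these misses do not measure what it can find there.

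The sources used here do not state that the replicate numbers pair the samples. After removal of group means, the 2 libraries of replicates 1, 2 and 3 correlated at 0.738, 0.875 and 0.824. The highest correlation of each DMSO library with a BDE209 library of another number was 0.644, -0.758 and 0.646. As replicate 2 stood apart in both groups, these values mostly set it against the others. They separate replicates 1 and 3 only weakly, so the pairing of those 2 numbers is assumed. Alternatives were the replicate block, leaving out libraries or a replicate, a pseudocount of 0.1, no filter or a minimum of 5 FPKM, rescaling to a sum of 1000000, quantile normalization and limma without its options. From each list the 2 tested genes of smallest p were named, and the 5 genes most correlated with the members of largest positive and negative difference. The members, the lists and the replicate 2 tests were chosen with earlier results of these data known. Of the lists, 1 gene of plasminogen activation and 1 thyroid marker are not reported here, and the counts, medians and sums of those lists leave them out.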

Additional observations from a re-analysis of the deposited data

How the results depend on the processing

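The counts over all 6 libraries depended on replicate 2. Leaving out libraries, singly or as a pair, gave 0 to 2 called members, 0 to 11 called genes of the companion lists and 0 to 764 called genes in all; the highest counts came without replicate 2, and without BDE209 replicate 2 alone 1 gene was called. With the replicate block the count of called members stayed at 0, and the block changed no call of the treatment comparison. For the interaction test the block took the count of members from 0 to 2. No call of the treatment comparison was changed by the pseudocount, the filters, rescaling, quantile normalization or the limma options. None of these turned the direction of a treatment difference of a member. The interaction test called 69 genes, 72 with the pseudocount of 0.1 and 82 with rescaling, with 0 members each time. With rescaling to a common sum, the small interaction values of MMP14 and TIMP2 turned to -0.0037 and -0.0044.

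When libraries were left out, the log2 differences ranged from -0.65 to 0.14 for MMP1, -0.12 to 0.53 for MMP2, -1.19 to 0.18 for MMP3, -0.064 to 0.36 for MMP14, -0.54 to -0.18 for TIMP1, -0.31 to 0.45 for TIMP2, -0.33 to 0.88 for TIMP3 and -0.23 to 0.20 for MMP10. They ranged from -0.48 to 0.049 for TIMP4, -0.14 to 0.10 for RECK and -0.04 to 0.57 for RUNX2. A single replicate 2 library that is left out leaves the replicate 2 shift in 1 group, and the widest values of MMP1, MMP2, MMP3, MMP14, TIMP2, TIMP3 and MMP10 come from these fits. The mean ratio of metalloproteinase to TIMP FPKM in BDE209 was 0.973 of that in DMSO, and 1.05 without replicate 2. Precision is limited by 3 libraries per group and by values given to 2 decimals, which bears on MMP10.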
